A study of Mus musculus with 24 samples.

Results

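Oxidative phosphorylation is carried out in the inner mitochondrial membrane by 5 multi-subunit complexes. The report concerns nuclear genes that encode their subunits, cytochrome c and some of the assembly factors. The genes were chosen by name alone: protein-coding genes of the GENCODE M21 annotation whose symbol begins with Nduf, Uqcr, Sdh, Atp5 or with Cox4 to Cox8, together with Cyc1 and Cycs. The rule gave 100 genes, all of which had a row in the files, out of 55471 genes in each file and 21974 protein-coding ones. No measured value entered the rule. By role these were 7 core and 29 accessory subunits of complex I, 4 subunits of complex II, 9 of complex III, cytochrome c, 20 genes of complex IV, 18 of the ATP synthase and 12 assembly factors. Ndufa4 and its paralog Ndufa4l2 were counted with complex IV. The name rule leaves out the assembly factors that carry other symbols and the 13 subunits encoded by mitochondrial DNA, which are described separately near the end.

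Complex I (NADH dehydrogenase) and complex II (succinate dehydrogenase) feed electrons into the chain, complex III passes them to cytochrome c, and complex IV (cytochrome c oxidase) hands them to oxygen. The proton gradient built by complexes I, III and IV drives the ATP synthase. Core subunits carry the flavin, iron-sulfur, heme or copper centres, accessory subunits surround them, and several complex IV subunits exist as isoforms that differ between tissues, such as the heart and skeletal muscle forms Cox6a2, Cox7a1 and Cox8b.

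Polyadenylated RNA was sequenced from skin and from bone of female mice aged 10 weeks, in a series on a mouse sarcoma model. Each tissue had 4 libraries labelled F-PRT, 4 labelled S-PRT and 4 labelled Untreated, 24 in all, and the labels call the 4 of a group biological replicates. F-PRT is read here as FLASH proton radiotherapy, which delivers protons at a very high dose rate, and S-PRT as proton radiotherapy at the standard dose rate. Strain, dose, interval after irradiation and tumour status are not in the labels used here, nor do they say whether a skin and a bone library came from the same mouse. In each tissue both beams were compared with the same 4 untreated libraries, so that the results for F-PRT and S-PRT are not independent of each other.

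The values tested were RSEM expected counts, with totals of 16.42 M to 22.09 M per skin library and 10.91 M to 17.36 M per bone library (M, megacounts). Levels of a single gene are given as CPM, counts scaled to a common library total, after TMM scaling within the tissue, n = 4 per group, and levels of different genes are set side by side only as TPM (transcript abundance scaled to a common total), which correct for length. A gene was called when its adjusted p was below 0.05 in edgeR's quasi-likelihood test with Benjamini-Hochberg adjustment over all genes tested, and every adjusted p below is from that test unless DESeq2 is named. Of the 100 genes, 97 passed the filter on low counts in skin and 98 in bone. Cox7b2 and Cox8c, testis-type isoforms, were not tested in either tissue. Of the 2 gene models named Atp5o, ENSMUSG00000116933 was not tested in skin.

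The defining markers matched the tissue labels: the keratin genes Krt5, Krt14 and Krt10 stood at 1958 CPM or more in every skin library and at 64.5 CPM or less in bone, and the osteocalcin gene Bglap at 291 to 855 CPM in bone against 0.121 CPM or less in skin. Markers of other cells moved with the groups. In bone, the mean log2 CPM of 12 neutrophil and granulocyte precursor markers ran from 4.06 to 5.65 in the 8 irradiated libraries and from 6.96 to 9.26 in untreated ones, and all 12 markers fell in both comparisons. Erythroid markers ran from 9.10 to 9.96 after irradiation and from 10.58 to 10.68 without it (8 of 11 fell in both comparisons), whereas 7 of 8 osteoclast markers rose in both and adipocyte markers rose in 7 and 8 of 10. In skin the neutrophil marker mean was 0.24 to 0.97 in irradiated and 1.64 to 2.76 in untreated libraries, and 2 of the 3 markers tested fell after each beam. All 10 fibroblast markers (medians 0.83 and 0.68) and all 10 endothelial markers (0.80 and 0.43) had positive log2 changes in skin after F-PRT and S-PRT, with 0 called by edgeR (0 and 0 fibroblast and 2 and 1 endothelial markers at an unadjusted p under 0.05). The part of these cell types in the results below was not tested. In bulk RNA, fewer cells of a type and less RNA per cell cannot be told apart. A set of 22 skeletal muscle markers varied widely between libraries of a group, from a mean log2 CPM of -0.50 (skin Untreated 4) to 9.43 (skin S-PRT 1) in skin and from 4.20 (bone Untreated 2) to 9.05 (bone F-PRT 3) in bone. All 22 had positive log2 changes in bone after F-PRT (median 0.81) and S-PRT (0.68) and in skin after S-PRT (1.58), and 15 did in skin after F-PRT (0.09). None of the 22 was called by edgeR in these comparisons, with 0 at an unadjusted p under 0.05. The bone group means were 6.67 ± 1.69 untreated, 7.67 ± 1.04 after F-PRT and 7.79 ± 0.56 after S-PRT (SD), with overlap. The 5 libraries that an earlier analysis of these files had placed in doubt were also left out together: skin S-PRT 4, with an endothelial marker mean of -0.21 (4.00 to 4.16 elsewhere in its group), skin Untreated 1, bone F-PRT 2 (keratinocyte marker mean 4.20), bone F-PRT 3 and bone Untreated 1 (neutrophil marker mean 6.96, and at least 8.70 elsewhere in its group). Keratinocyte markers were not raised in that bone library alone: their mean was -1.00 to -0.38 in untreated bone, but 2.14 in F-PRT 3, 2.81 in F-PRT 4 and 2.14 in S-PRT 4, and 10 of 11 were called higher in bone after F-PRT and 1 after S-PRT. Each main count below is given with and without the 5 libraries.

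In untreated tissue the oxidative phosphorylation genes were expressed at higher relative levels in skin than in bone. Of 98 genes tested, 64 were called higher in skin (65.31%, against 32.6% of all genes) and 2 lower (2.04%, against 32.6%), with a median log2 difference of 0.57 (skin over bone) beside -0.006 for all 20754 genes tested. All 9 complex III genes were higher in skin, with a median of 0.72, as were 22 of 29 complex I accessory genes and 12 of 18 ATP synthase genes. Complex II was the exception in count, with 1 of 4 genes called, and 3 of 7 complex I core genes passed. Other lists were also higher in untreated skin. The medians were 0.76 for the cytosolic ribosome (73 of 86 called higher, 2 lower) and 0.53 for the mitochondrial ribosome (59 of 78, 2 lower). They were 0.73 for fatty acid oxidation (11 of 16, 1 lower) and 0.40 for the TCA cycle and pyruvate entry (11 of 19, 1 lower). Of 13 subunits encoded by mitochondrial DNA 0 were called higher and 2 lower, and all 20 cell cycle genes were called lower. Without the libraries in doubt 55 oxidative phosphorylation genes were called higher and 3 lower, beside 33.7% and 32.3% of all genes. Their median was 0.47 in that fit.

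The order of the levels was similar at the top in both tissues. Atp5b, the catalytic beta subunit of the ATP synthase, was the most abundant of the genes in untreated skin at 508 ± 191 TPM (SD), with libraries from 320.9 to 768.5. Ndufa4, a subunit of complex IV, followed at 293 ± 60.0 TPM, and its libraries (228.7 to 358.4) overlapped those of Atp5b. Next in skin were the small complex III subunits Uqcrq at 236 ± 52.9 TPM and Uqcr10 at 198 ± 36.6 TPM and the complex IV subunit Cox6b1 at 190 ± 45.5 TPM, neighbours whose spreads overlapped. In untreated bone Atp5b stood at 311 ± 102 TPM, and all its libraries (191.00 to 401.4) lay above those of the second gene, Cox6b1 (128 ± 54.2 TPM, 60.02 to 176.2). Uqcrq at 113 ± 34.1, Ndufa4 at 107 ± 31.4 and Cox8a at 104 ± 42.4 TPM overlapped with Cox6b1. In skin 16 genes exceeded 100 TPM and in bone 5, and the medians over the 100 genes were 36.9 and 27.0 TPM. The TPM totals differ in make-up between the tissues. The non-coding RNA genes Rn7sk, Rn7s1, Rn7s2 and Rmrp took 39.9 to 55.8% of them in untreated skin and 31.5 to 46.5% in untreated bone. A cut-off in TPM therefore does not rest on the same base in both. Most genes under 5 TPM (14 in skin, 16 in bone) were assembly factors and tissue-restricted isoforms, with Cox7b2 and Cox8c at 0 TPM in all untreated libraries.

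The largest differences between the untreated tissues concerned the paralogs. Ndufa4l2, a hypoxia-inducible relative of Ndufa4, stood at 38.6 ± 16.2 CPM in skin and 2.60 ± 0.962 CPM in bone on the scale shared by both tissues, a 14.9-fold difference (log2 3.89, SE 0.31, adjusted p = 3.13e-10). The Ndufa4l2 libraries did not overlap: the lowest in skin was 28.4 CPM. Ndufb6, a membrane-arm accessory subunit of complex I, was 2.92-fold higher in skin (28.6 ± 3.65 against 9.75 ± 1.39 CPM, adjusted p = 4.6e-10), Ndufs6, an accessory subunit near the NADH end, also 2.92-fold (adjusted p = 8.12e-08), and Uqcrb, a small complex III subunit, 2.72-fold (adjusted p = 2.17e-08). In the other direction Cox6b2, the testis-type isoform of a complex IV subunit that faces cytochrome c, stood at 1.14 ± 0.168 CPM in skin and 13.8 ± 1.34 CPM in bone (log2 -3.59, SE 0.19, adjusted p = 2.73e-13). The second gene called lower in skin was Sdhaf2, a complex II assembly factor, which lies outside the rule for named genes and was singled out after its value was seen. Cox6a2, Cox8b and Cox4i2 had negative differences (log2 -1.50, -1.02 and -0.71) that did not pass (adjusted p = 0.244, 0.347 and 0.292).

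After irradiation the 2 tissues differed. In skin nearly all oxidative phosphorylation genes had values below untreated after either beam, by small amounts that seldom passed the test gene by gene. There 1 gene, Cox6b2, rose several-fold. In bone most genes had values above untreated, again by small amounts, and Cox6b2 fell after F-PRT. The tissue difference itself was called lower for 20 of 98 genes after F-PRT (5.99% of all genes) and higher for 1 (4.66%), and for 13 in either direction without the libraries in doubt.

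In skin after F-PRT, 89 of 97 tested genes had a negative log2 change, with a median of -0.32 beside -0.021 over all 19038 genes tested, of which 47.3% were positive. The calls were 1 higher (1.03%, against 1.00% of all genes) and 1 lower (1.03%, against 1.39%). An unadjusted p under 0.05 was found in edgeR for 36 of the 97, beside 2835 of all 19038 genes. The 4 F-PRT libraries all lay below the 4 untreated ones for 27 of the 97 genes, which was so for 8.14% of all genes. By role the median was -0.39 for 17 ATP synthase genes, -0.37 for 9 complex III genes, -0.36 for 7 complex I core genes, -0.31 for complex II, -0.28 for complex IV, -0.27 for the assembly factors and -0.24 for 29 complex I accessory genes. No gene of the ATP synthase, complex I core, complex II or complex III had a positive change.

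After S-PRT in skin 84 of 97 genes were negative, with a median of -0.26 beside 0.004 over all genes, of which 50.4% were positive. There 1 gene was called higher (1.03%, against 1.83% of all genes) and 6 lower (6.19%, against 2.52%). At an unadjusted p under 0.05 in edgeR there were 35 of the 97, beside 3202 of all 19038 genes. All S-PRT libraries lay below all untreated ones for 19 genes, against 5.37% of all genes. Complex III had the lowest median, -0.44, with all 9 genes negative, followed by the ATP synthase at -0.35. Complex II stood at -0.08 with 2 of 4 genes negative. Negative values in both beams were found for 83 genes.

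**Figure D1:**
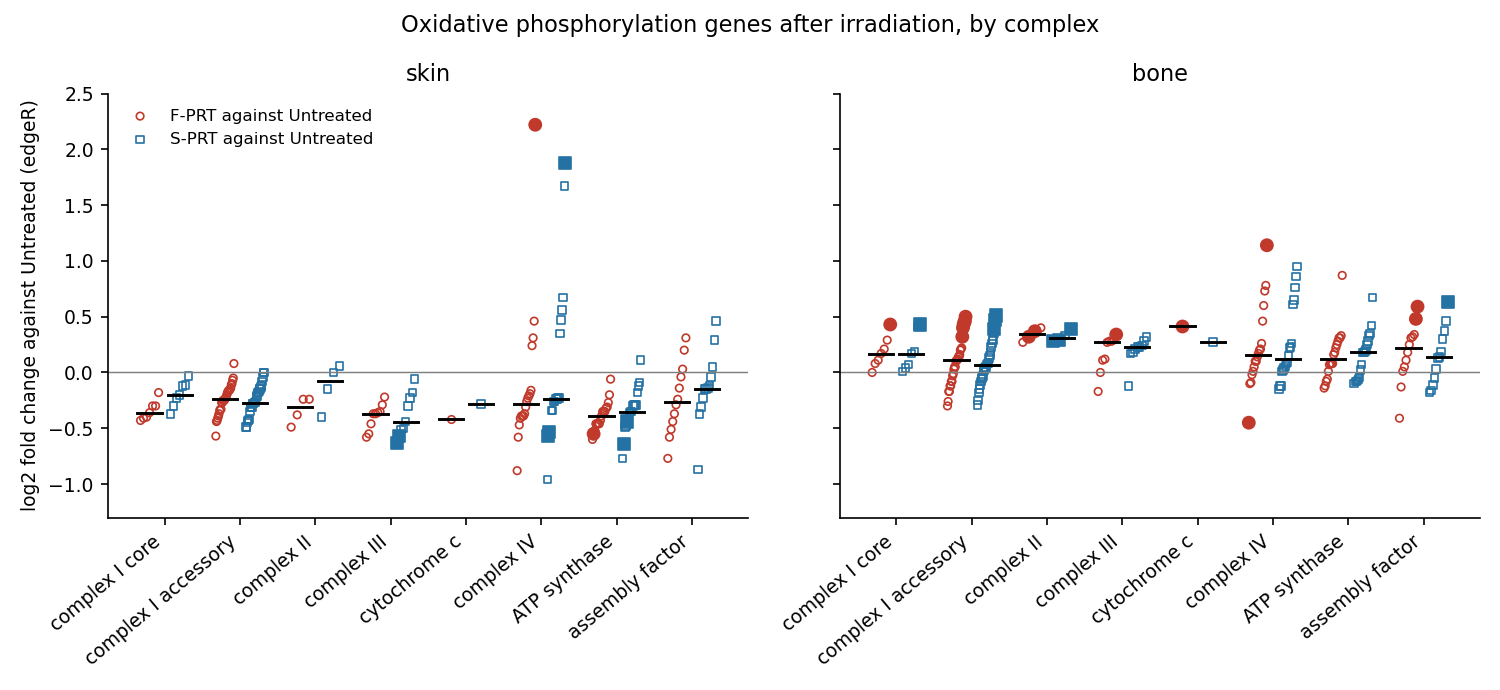
Log2 change of each tested gene against untreated (vertical axis), grouped by complex (horizontal axis), in skin and in bone, with F-PRT as red circles and S-PRT as blue squares. Filled symbols passed the test and black bars are medians: the skin medians of all roles lie below 0 and the bone medians above it, and the Cox6b2 points (log2 2.22 and 1.88) are the highest of the skin panel.

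The plot of changes by complex shows how far Cox6b2 was from the other genes in skin, apart from the muscle isoform Cox6a2 after S-PRT, which did not pass. Its values in untreated skin were 1.30, 0.932, 1.09 and 1.09 CPM, against 5.91, 4.37, 6.03 and 4.36 CPM after F-PRT and 4.15, 5.03, 4.19 and 2.99 CPM after S-PRT. All 8 irradiated libraries lay above all 4 untreated ones. The rise was 4.66-fold after F-PRT (log2 2.22, SE 0.23, adjusted p = 0.000286) and 3.69-fold after S-PRT (log2 1.88, SE 0.23, adjusted p = 0.000626). Both calls were kept in all 20 alternative settings run for each.

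In bone, where Cox6b2 was higher than in skin before irradiation, it moved the other way. Untreated bone libraries held 12.6, 14.9, 14.5 and 15.4 CPM and F-PRT libraries 10.9, 10.4, 11.0 and 9.77 CPM, with no overlap (log2 -0.45, SE 0.12, adjusted p = 0.0131). The S-PRT libraries, at 13.5, 12.3, 15.4 and 10.6 CPM, overlapped with the untreated ones (log2 -0.15, SE 0.12, adjusted p = 0.391). The bone call after F-PRT was lost when genes were not filtered on low counts (adjusted p = 0.119). The change in skin minus the change in bone was log2 2.65 (SE 0.25, adjusted p = 5.71e-07) for F-PRT and 2.02 (SE 0.25, adjusted p = 1.28e-05) for S-PRT.

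Cox6b1, the isoform found in most tissues, did not follow. It stood at 129, 122, 110 and 104 CPM in untreated skin, at 101, 100, 99.5 and 101 CPM after F-PRT and at 105, 97.5, 98.3 and 95.8 CPM after S-PRT. The F-PRT libraries lay just below the untreated ones, and the changes did not pass (log2 -0.21, adjusted p = 0.281, and -0.23, adjusted p = 0.195). Of the summed TPM of the pair, Cox6b2 made up 0.798 to 1.25% in untreated skin, 4.51 to 6.20% after F-PRT and 3.52 to 5.58% after S-PRT. In bone the share was 14.3 to 22.1% untreated, 9.68 to 11.0% after F-PRT and 10.8 to 14.9% after S-PRT. Cox6b1 thus remained the larger part of the pair in every library.

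**Figure D2:**
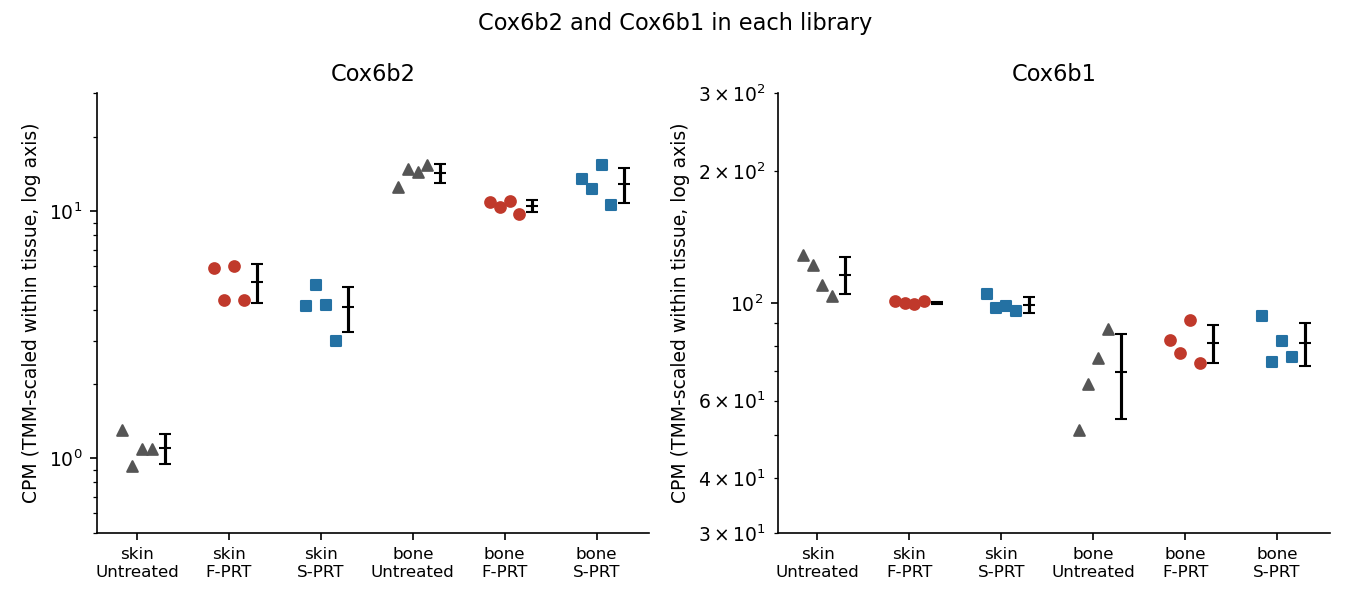
CPM (log axis) of Cox6b2 and Cox6b1 in each of the 24 libraries, by tissue and treatment, with bars for the mean ± SD of 4 libraries; the panels have different ranges. In skin the irradiated Cox6b2 libraries (2.99 to 6.03 CPM) lie above the untreated ones (0.932 to 1.30 CPM), and Cox6b1 stays between 95.8 and 129 CPM.

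Cox6b2 lies on the minus strand of chromosome 7 (ENSMUSG00000051811, GRCm38, 4751792 to 4753094) and Cox6b1 on the same strand (ENSMUSG00000036751, 30616861 to 30626151). Neither gene model overlaps another. The 250 bases before the RefSeq start of each gene (GRCm38.p6, Cox6b2 at chr7:4753095-4753344 and Cox6b1 at chr7:30626115-30626364, minus strand) are shown because the isoforms moved apart in skin. Capitals mark the SP1 box GGGCGGG in Cox6b2, from -193 to -187, and the ETS core CCGGAAG, here on the opposite strand, in Cox6b1, from -28 to -22.

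Cox6b2: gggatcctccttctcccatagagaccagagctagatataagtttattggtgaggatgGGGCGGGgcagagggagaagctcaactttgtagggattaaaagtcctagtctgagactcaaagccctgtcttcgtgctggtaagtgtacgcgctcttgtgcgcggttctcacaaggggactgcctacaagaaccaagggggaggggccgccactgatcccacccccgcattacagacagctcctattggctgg

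Cox6b1: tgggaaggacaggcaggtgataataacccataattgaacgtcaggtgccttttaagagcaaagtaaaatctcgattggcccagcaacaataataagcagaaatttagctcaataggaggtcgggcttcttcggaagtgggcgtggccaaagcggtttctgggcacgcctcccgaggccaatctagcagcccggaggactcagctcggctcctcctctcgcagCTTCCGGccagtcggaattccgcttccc

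Of the 4 motifs searched, described further below, each window held 1 match. A match is a run of letters and not evidence of binding.

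The genes that fell in skin belonged to 3 complexes. Atp5g3 encodes subunit c, which forms the rotating ring of the ATP synthase. It stood at 147, 148, 127 and 115 CPM in untreated skin and at 103, 89.0, 87.4 and 87.3 CPM after F-PRT, without overlap (log2 -0.55, SE 0.13, adjusted p = 0.0437). The S-PRT libraries, at 110, 85.4, 80.6 and 107 CPM, also lay below all untreated ones but did not pass (log2 -0.49, adjusted p = 0.053). The other genes for the same protein had values in the same direction that did not pass after F-PRT: Atp5g1 at log2 -0.52 (adjusted p = 0.227) and Atp5g2 at -0.31 (adjusted p = 0.604).

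After S-PRT the fall passed for 2 complex III genes. Uqcr10, a small subunit of complex III, was at 72.7, 95.0, 83.5 and 74.5 CPM in untreated skin and at 54.0, 61.5, 53.9 and 40.2 CPM after S-PRT (log2 -0.63, SE 0.14, adjusted p = 0.0207). Uqcrq, which sits close to cytochrome b, was at 110, 130, 101 and 102 CPM untreated and at 84.2, 77.6, 77.6 and 59.1 CPM after S-PRT (log2 -0.57, SE 0.12, adjusted p = 0.0192). In both genes the groups did not overlap, and the F-PRT changes were of like size without passing (Uqcr10 log2 -0.55, adjusted p = 0.0568, and Uqcrq -0.46, adjusted p = 0.0733). In both, S-PRT 4 was the lowest library.

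After S-PRT 2 complex IV subunits fell. Cox7b, a small membrane subunit, stood at 88.4, 102, 99.0 and 91.3 CPM in untreated skin and at 65.9, 65.2, 64.0 and 61.8 CPM after S-PRT (log2 -0.57, SE 0.12, adjusted p = 0.0163), a narrow group wholly below the untreated one. Cox7a2, the isoform of subunit VIIa outside muscle, fell with log2 -0.53 (adjusted p = 0.0336). Of the ATP synthase genes 2 fell as well: Atp5e, the epsilon subunit of the central stalk (log2 -0.64, adjusted p = 0.0409), and Atp5j, coupling factor 6 of the peripheral stalk (log2 -0.44, adjusted p = 0.0409). Atp5j overlaps Gabpa on the opposite strand, and since the strand setting of the counting is not given in the sources used here, reads of the pair may not be separable. The most negative values in skin belonged to genes that did not pass: Ndufa4l2 (log2 -0.88 after F-PRT, adjusted p = 0.166, and -0.96 after S-PRT, adjusted p = 0.0917) and the assembly factor Ndufaf6 (-0.77, adjusted p = 0.149, and -0.87, adjusted p = 0.0694).

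The number of skin genes called depended on which libraries were in the fit. Without the 5 libraries in doubt 17 were called after F-PRT (1 higher, 16 lower) and 17 after S-PRT (3 higher, 14 lower), out of 97 tested, while the medians moved to -0.26 and -0.17. In that fit 5.84% of all genes were called lower after F-PRT and 10.5% after S-PRT, so that more of all genes were called as well. Leaving out skin S-PRT 4 alone gave 11 called in each comparison (10 and 9 lower, beside 3.84% and 5.23% of all genes), and leaving out single libraries gave 1 to 11 called for F-PRT and for S-PRT. After S-PRT 1 gene was called without Untreated 2, 2 without Untreated 3 and 4 without F-PRT 1, F-PRT 2 or S-PRT 3. After F-PRT the single call was Cox6b2 without any one F-PRT library, S-PRT 2, Untreated 2 or Untreated 3. For single libraries other than skin S-PRT 4 no share of all genes is given.

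In bone after F-PRT, 77 of 98 tested genes had a positive log2 change, with a median of 0.15 beside -0.008 over all 18848 genes tested, of which 49.4% were positive. The calls were 14 higher (14.29%, against 15.5% of all genes) and 1 lower (1.02%, against 17.2%). The share called higher was close to that of all genes, and the share called lower was not. All F-PRT libraries lay above all untreated ones for 9 genes of 98, against 15.0% of all genes. Among roles of more than 1 gene the median was highest for complex II (0.35, 4 of 4 positive), followed by complex III (0.27), the assembly factors (0.22), complex I core (0.17), complex IV (0.15), the ATP synthase (0.12) and complex I accessory genes (0.11). None of the 18 ATP synthase genes was called.

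After S-PRT in bone 75 of 98 genes were positive, with a median of 0.16 beside -0.006 over all genes. Here 8 were called higher (8.16%, against 13.3% of all genes) and 0 lower (0.00%, against 15.2%). With DESeq2 12 were called higher and 0 lower, without a share of all genes to set beside them. In edgeR 20 of the 98 had an unadjusted p under 0.05 in either direction. This held for 7407 of all 18848 genes, a larger share. All S-PRT libraries lay above all untreated ones for 11 genes, against 12.1% of all genes. Complex II again had the highest median, 0.31, with 3 of 4 genes called. Values were positive in both beams for 71 genes.

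The gene with the smallest p in bone in either comparison was Ndufaf4, an assembly factor of complex I. It stood at 11.5, 9.07, 11.9 and 9.18 CPM in untreated bone, at 15.0, 15.0, 17.1 and 15.4 CPM after F-PRT and at 15.6, 18.4, 15.1 and 15.0 CPM after S-PRT. Every irradiated library lay above every untreated one. The rise was 1.50-fold after F-PRT (log2 0.59, SE 0.12, adjusted p = 0.00218) and 1.54-fold after S-PRT (log2 0.63, SE 0.12, adjusted p = 0.00171), and both calls were kept in all 20 settings. In skin the values were negative without passing (log2 -0.44, adjusted p = 0.251, and -0.37, adjusted p = 0.305).

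Ndufaf4 lies on chromosome 4 (ENSMUSG00000028261, GRCm38, 24898083 to 24905001, plus strand). Uqcr10, called in skin and not in bone, lies on chromosome 11 (ENSMUSG00000059534, 4701973 to 4704342, minus strand). The 250 bases before their RefSeq starts (GRCm38.p6, chr4:24897833-24898082 and chr11:4704345-4704594) are shown to set a window with matches beside one without. Capitals in Ndufaf4 mark the NRF1 core CGCATGCG, from -112 to -105, and an SP1 box, from -89 to -83.

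Ndufaf4: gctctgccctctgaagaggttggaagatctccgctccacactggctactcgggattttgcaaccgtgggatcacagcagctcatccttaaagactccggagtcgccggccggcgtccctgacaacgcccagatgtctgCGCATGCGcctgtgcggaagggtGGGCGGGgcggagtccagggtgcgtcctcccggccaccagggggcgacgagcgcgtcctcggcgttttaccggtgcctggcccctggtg

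Uqcr10: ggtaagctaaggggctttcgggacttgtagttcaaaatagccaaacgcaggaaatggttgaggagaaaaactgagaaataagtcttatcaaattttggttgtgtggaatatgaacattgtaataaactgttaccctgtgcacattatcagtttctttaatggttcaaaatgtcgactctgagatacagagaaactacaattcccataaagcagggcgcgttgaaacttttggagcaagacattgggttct

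RefSeq windows were at hand for 79 of the 99 distinct gene symbols. Both strands were searched for 4 motifs. The NRF1 core CGCATGCG, which reads the same on both strands, was found in 9 of the 79 windows (11.4%), against 1.7% of 27025 genes with a window and 2.3% of protein-coding ones. The ETS core CCGGAAG, the kind of site bound by GABP, was found in 16 (20.3%), against 7.8% and 10.2%. The SP1 box GGGCGGG was found in 25 (31.6%), against 25.7% and 34.1%, and the YY1 core AAGATGG in 1 (1.3%), against 5.2% and 4.8%. No motif holds another within it. These counts describe letters in a window of 250 bases and nothing further.

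Complex II had the highest median of the complexes in bone. Sdha, the flavoprotein that oxidises succinate, stood at 88.0, 87.0, 100 and 102 CPM in untreated bone, at 124, 111, 135 and 118 CPM after F-PRT and at 144, 109, 118 and 123 CPM after S-PRT. No irradiated library overlapped with an untreated one (F-PRT log2 0.37, SE 0.10, adjusted p = 0.0142, and S-PRT 0.39, SE 0.10, adjusted p = 0.0128). Sdhc, a membrane anchor, rose after both beams (log2 0.32, adjusted p = 0.0192, and 0.28, adjusted p = 0.0402). Sdhd, the other anchor, rose after S-PRT (log2 0.29, adjusted p = 0.0467) and was at 0.27 after F-PRT (adjusted p = 0.0525). Sdhb, the iron-sulfur subunit, had the widest spread of the 4 and did not pass (log2 0.40, SE 0.19, adjusted p = 0.12, and 0.33, SE 0.19, adjusted p = 0.207).

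Among complex I genes Ndufa10, an accessory subunit of the membrane arm, was at 45.2, 52.0, 55.3 and 63.9 CPM in untreated bone, at 76.0, 67.1, 86.5 and 68.0 CPM after F-PRT and at 84.8, 75.0, 72.3 and 68.0 CPM after S-PRT. The irradiated libraries all lay higher (log2 0.46, adjusted p = 0.00981, and 0.47, adjusted p = 0.00968). Ndufb6 rose after both beams (log2 0.43, adjusted p = 0.023, and 0.39, adjusted p = 0.0376), as did the accessory subunit Ndufc1 (0.50, adjusted p = 0.0391, and 0.51, adjusted p = 0.0426) and the core subunit Ndufs3 of the quinone module (0.43, adjusted p = 0.0365, and 0.43, adjusted p = 0.0405). Ndufa9 (log2 0.40, adjusted p = 0.036) and Ndufc2 (0.32, adjusted p = 0.036) rose after F-PRT. The core subunits Ndufs1 and Ndufv1 stood at log2 0.11 and 0.21 after F-PRT and did not pass (adjusted p = 0.458 and 0.179).

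Downstream of complex I, Cycs, which encodes cytochrome c, rose after F-PRT (76.0 ± 9.09 to 102 ± 21.2 CPM, log2 0.42, adjusted p = 0.031), with bone F-PRT 3 highest at 133 CPM. Cycs has an annotated processed pseudogene under its symbol, so its reads may be shared. Uqcrc2, a core protein of complex III, rose after F-PRT (log2 0.34, adjusted p = 0.0387) and was at 0.28 after S-PRT (adjusted p = 0.0903). Cox4i2, the oxygen-responsive isoform of complex IV subunit IV known from lung, was low throughout: 1.95, 0.534, 1.67 and 0.938 CPM in untreated bone, 2.94, 3.13, 1.70 and 3.23 CPM after F-PRT and 2.68, 1.93, 2.05 and 2.97 CPM after S-PRT. These groups overlapped by single libraries. Cox4i2 had the largest fold in bone, 2.20 after F-PRT (log2 1.14, SE 0.35, adjusted p = 0.0235), and was at log2 0.95 after S-PRT (adjusted p = 0.0597). Its usual partner isoform Cox4i1 was near its untreated level (log2 0.05, adjusted p = 0.831, and 0.01, adjusted p = 0.969). Endothelial markers rose in the same bone libraries (6 of 10 called after each beam, mean log2 CPM 5.30 to 5.74 against 4.78 to 5.02), and their part in the result was not tested.

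The number of bone genes called also depended on the setting. With the skeletal muscle marker mean as a covariate 6 genes were called after F-PRT (4 higher, 2 lower, beside 13.6% and 14.4% of all genes). After S-PRT 2 were called (2 higher, beside 10.7% of all genes). The medians after F-PRT and S-PRT were 0.07 and 0.07. Without the libraries in doubt 3 were called after F-PRT (2 higher, Ndufaf4 and Cox4i2, and 1 lower, Cox6b2) with a median of 0.06, and 8 after S-PRT (7 higher, 1 lower) with a median of 0.09. In that fit 12.4% and 14.8% of all genes were called higher, and 11.5% and 15.1% lower. After F-PRT 4 were called without Untreated 2, 5 without F-PRT 3, 8 without F-PRT 1, 9 without Untreated 3 and 20 without Untreated 4. After S-PRT 3 were called without S-PRT 1 or Untreated 2, 4 without S-PRT 4 or F-PRT 1, 5 without Untreated 3 and 15 without Untreated 4. With the replicate number as a block 8 were called after F-PRT. For the block and for single libraries left out no share of all genes is given.

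The change in skin minus the change in bone was tested as a difference. This is not a test of opposite signs, since it can pass where only 1 tissue changed. For F-PRT 20 of 98 genes were called lower (20.41%, against 5.99% of all genes) and 1 higher (1.02%, against 4.66%), with a median of -0.47 beside -0.017 over all genes. For S-PRT 15 were called lower (15.31%, against 4.49%) and 1 higher (1.02%, against 4.96%), with a median of -0.43 beside 0.014. Complex III held 4 called genes of 9 in each comparison, the ATP synthase 5 and 4 of 18, and complex I core 0 of 7 in both, although all 7 were negative. Without the libraries in doubt 13 genes were called in each comparison (12 and 11 lower, beside 5.98% and 7.48% of all genes), with medians of -0.30 and -0.25. Without skin Untreated 2 the S-PRT count was 10.

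Ndufaf4 had the smallest p of the genes with a negative difference (F-PRT log2 -1.05, SE 0.20, adjusted p = 0.00174, and S-PRT -1.01, SE 0.20, adjusted p = 0.0022). Atp5g3 followed with -0.85 (adjusted p = 0.00276) and -0.76 (adjusted p = 0.00634), and Uqcr10 with -0.86 (adjusted p = 0.00854) and -0.89 (adjusted p = 0.0066). Cyc1, the heme-bearing cytochrome c1 of complex III, differed by -0.87 (adjusted p = 0.0102) and -0.85 (adjusted p = 0.0124), Sdhd by -0.79 (adjusted p = 0.00913) and -0.70 (adjusted p = 0.0199), and Ndufb6 by -0.68 (adjusted p = 0.015) and -0.72 (adjusted p = 0.0115). Cyc1 had lower values in skin and higher ones in bone after F-PRT, without a call in either tissue alone. It stood at 118, 118, 84.1 and 84.2 CPM in untreated skin against 74.5, 70.1, 63.5 and 62.6 CPM after F-PRT. The bone values were 61.4, 60.9, 73.9 and 81.4 CPM untreated against 88.3, 73.8, 91.1 and 82.1 CPM after F-PRT. In skin those groups did not overlap and in bone they did. Ndufa4l2 had the most negative difference of the genes called (F-PRT -1.37, adjusted p = 0.0352, and S-PRT -1.64, adjusted p = 0.0124). It overlaps Shmt2 on the opposite strand.

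**Figure D3:**
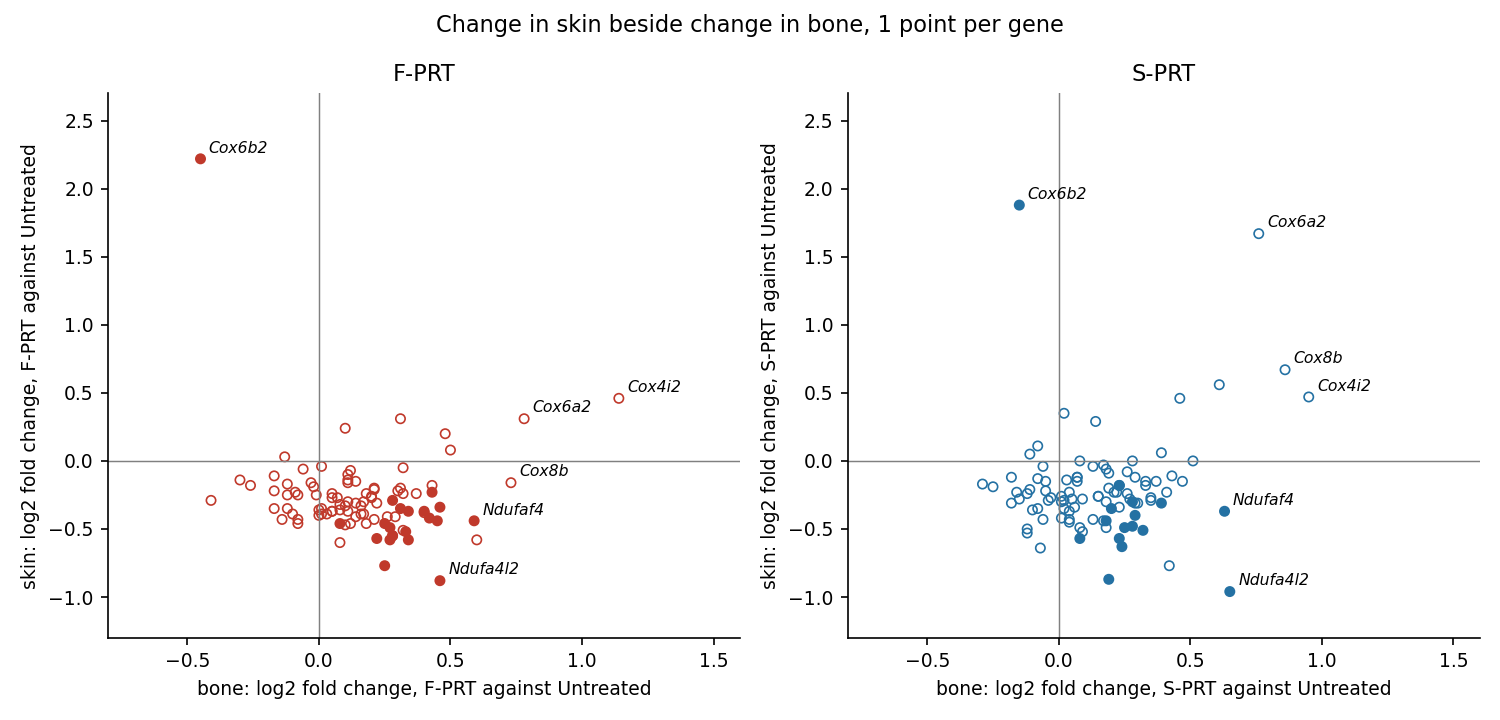
Log2 change in skin (vertical axis) against log2 change in bone (horizontal axis), 1 point per gene for the 97 genes tested in both tissues, for F-PRT and S-PRT. Filled points passed the test of the tissue difference: most points fall at the lower right, and Cox6b2 lies alone at the upper left.

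The plot of skin against bone changes places most genes at a negative change in skin and a positive one in bone, with Cox6b2 far from them. The uncalled points at the upper right include the muscle isoforms Cox6a2 and Cox8b and the low-level Cox4i2.

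No gene was called between F-PRT and S-PRT in either tissue. In skin 0 of 97 genes were called between the beams by edgeR (0.00% of all genes were) and 0 by DESeq2. At an unadjusted p under 0.05 in edgeR there was 1 gene, beside 522 of all 19038 genes. The skin median was -0.05. In bone 0 of 98 were called by edgeR and 0 by DESeq2 (0.00531% of all genes were called by edgeR). At an unadjusted p under 0.05 in edgeR there was 1, beside 634 of all 18848 genes. The bone median was 0.02. For Cox6b2 the F-PRT minus S-PRT difference was log2 0.34 in skin, with a 95% interval (1.96 SE either side) of -0.08 to 0.76, and -0.30 in bone, with an interval of -0.54 to -0.06 (adjusted p = 1.0). Cox6b2 was the bone gene with unadjusted p = 0.0297. For Ndufaf4 the intervals were -0.41 to 0.27 in skin and -0.26 to 0.19 in bone, and for Uqcr10 -0.19 to 0.35 and -0.22 to 0.31. The muscle isoforms had the widest intervals, such as -3.95 to 1.24 for Cox6a2 in skin, so that large differences in them cannot be told from none. These intervals do not show that the beams act alike.

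The muscle isoforms of complex IV varied between libraries with the level of the skeletal muscle markers. Whether muscle tissue in the samples accounts for these values was not tested. Cox6a2 stood at 3.31, 23.1, 8.41 and 0 CPM in untreated skin, at 32.3, 3.91, 5.43 and 1.73 CPM after F-PRT and at 90.7, 14.5, 3.08 and 2.11 CPM after S-PRT. In each group 1 library lay well above the rest, and the groups overlapped. The log2 change after S-PRT, 1.67 (adjusted p = 0.587), became -0.41 without skin S-PRT 1 and -0.19 with the muscle covariate. The log2 change after F-PRT, 0.31 (adjusted p = 0.946), became -1.24 without skin F-PRT 1. In bone the change of Cox6a2 after F-PRT, 0.78 (adjusted p = 0.37), became -0.08 without bone F-PRT 3, which held 107 CPM. Cox7a1 and Cox8b had their highest skin value in the same library as Cox6a2, S-PRT 1 (10.2 and 16.1 CPM).

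**Figure D4:**
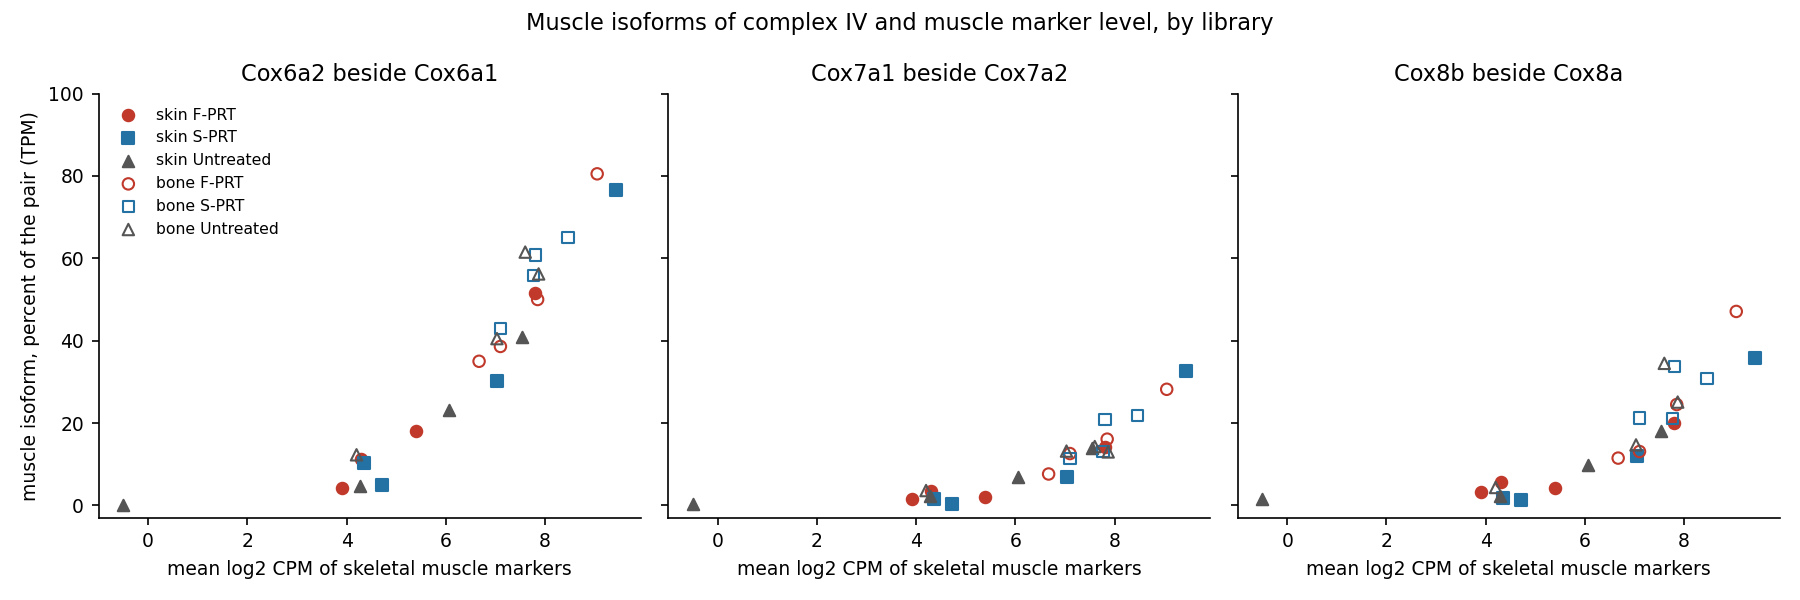
Share of the muscle isoform in the summed TPM of its pair, in percent (vertical axis), against the mean log2 CPM of 22 skeletal muscle markers (horizontal axis) in 24 libraries, filled for skin and open for bone, for the complex IV isoform pairs. The Cox6a2 share runs from 0% in skin Untreated 4, at a marker mean of -0.50, to 76.6% in skin S-PRT 1, at 9.43, and 80.5% in bone F-PRT 3, at 9.05.

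The plot of muscle isoform shares shows libraries of all groups along 1 course, with high and low shares in each treatment. The relation is given as a description, since the isoforms and the markers come from the same libraries.

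The median over all the genes was set beside the same muscle markers. In skin the median log2 CPM over the tested genes was 5.19 to 5.51 in untreated libraries, 4.99 to 5.15 after F-PRT and 4.93 to 5.20 after S-PRT. The F-PRT libraries lay below all untreated ones, and skin S-PRT 1, with the highest muscle markers of all, was the only S-PRT library above the lowest untreated value. With muscle as a covariate the skin medians of the log2 changes were -0.35 and -0.33, beside -0.32 and -0.26 without it. In bone the libraries overlapped: 4.56 to 5.02 untreated, 4.71 to 5.01 after F-PRT and 4.76 to 5.02 after S-PRT. The library of each bone group with the highest muscle markers was at or next to the top of its group in this median (F-PRT 3, S-PRT 1 and Untreated 4, at 5.0 to 5.02). With the covariate the bone medians of the log2 changes went from 0.15 to 0.07 after F-PRT and from 0.16 to 0.07 after S-PRT.

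**Figure D5:**
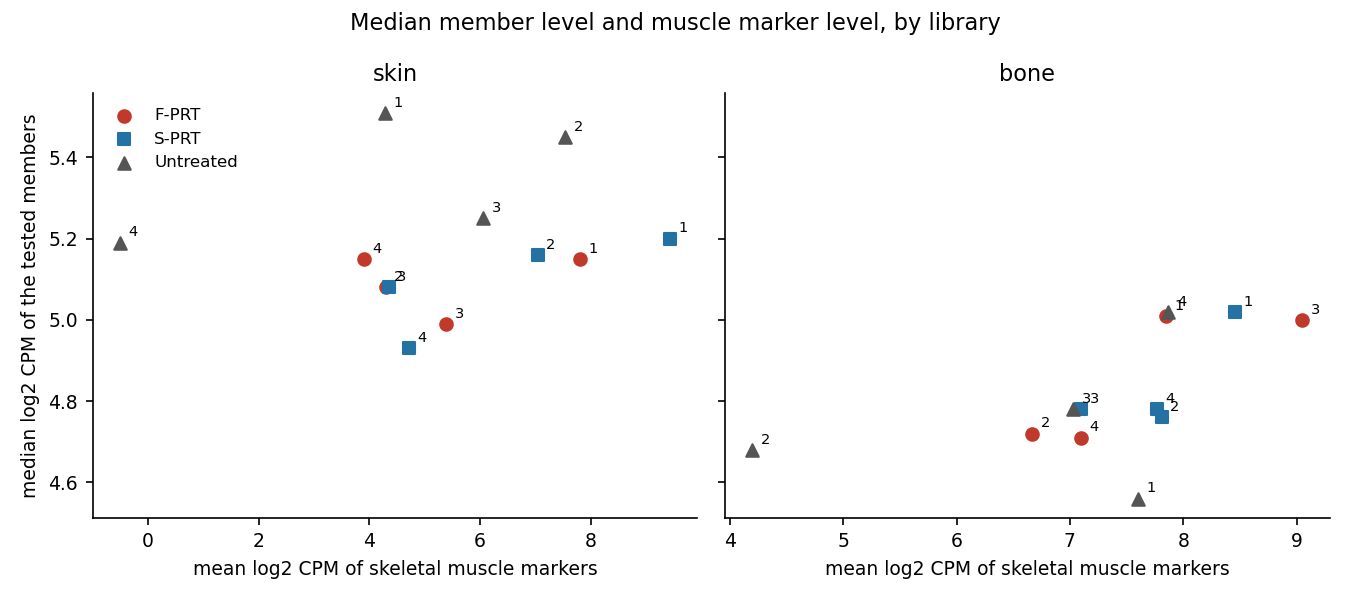
Median log2 CPM of the tested genes (vertical axis) against the mean log2 CPM of 22 skeletal muscle markers (horizontal axis) in each library, by tissue, with replicate numbers beside the points. In skin the untreated libraries (5.19 to 5.51) lie above the F-PRT libraries (4.99 to 5.15) at both low and high muscle marker levels, and in bone the groups overlap.

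The plot of medians against muscle markers gives the 2 quantities for each library, and its skin panel separates untreated from F-PRT libraries along the vertical axis. On the TPM scale the bone groups stood further apart than on the scaled counts. The genes summed to 2386 to 4712 TPM in untreated bone, 5851 to 8277 after F-PRT and 6100 to 7669 after S-PRT, without overlap. As a share of the TPM of all nuclear protein-coding genes, they made up 0.899 to 1.04% untreated, 1.35 to 1.76% after F-PRT and 1.36 to 1.64% after S-PRT. TPM is a share of a total that a few very abundant transcripts can dominate, and 4 small non-coding RNA genes (Rn7sk, Rn7s1, Rn7s2 and Rmrp) took 31.5 to 46.5% of the TPM in untreated bone and 25.5 to 31.0% after irradiation. The neutrophil and erythroid markers fell in these libraries as given above, and the part of either in the TPM difference was not tested. In skin the genes made up 1.98 to 2.44% of nuclear protein-coding TPM untreated, 1.72 to 1.98% after F-PRT and 1.65 to 2.13% after S-PRT.

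Neighbouring gene lists were set beside the oxidative phosphorylation genes. The background for the calls of every list is the share of all genes called. In bone 15.5% of all genes were called higher after F-PRT and 13.3% after S-PRT, and 17.2% and 15.2% lower. In skin 1.00% and 1.83% were called higher, and 1.39% and 2.52% lower. Of the 13 subunits encoded by mitochondrial DNA, 0 were called in skin after F-PRT or S-PRT (1 and 0 at an unadjusted p under 0.05), with medians of -0.32 and -0.04. In bone 0 were called after F-PRT (0 at an unadjusted p under 0.05) and 1 after S-PRT, mt-Nd3, a complex I core subunit, which fell (log2 -0.75, adjusted p = 0.0285). Of 36 tested assembly factors with other symbols, 7 rose and 1 fell in bone after F-PRT, with a median of 0.20, and 6 rose and 1 fell after S-PRT, with a median of 0.14. Tmem70, which helps build the ATP synthase, rose after both (log2 0.51, adjusted p = 0.00806, and 0.55, adjusted p = 0.00593), and Pet100, a complex IV chaperone, fell after both (log2 -0.73, adjusted p = 0.0109, and -0.76, adjusted p = 0.0106). In skin 1 of 36 fell after F-PRT and 2 after S-PRT, among them Acad9, a complex I assembly factor (log2 -0.70, adjusted p = 0.012, and -0.84, adjusted p = 0.00257).

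Upstream pathways had medians of the same sign as the oxidative phosphorylation genes. Of 19 genes of the TCA cycle and pyruvate entry, 1 fell and 0 rose in skin after each beam, with medians of -0.29 and -0.09. It was Mpc2, a subunit of the mitochondrial pyruvate carrier (log2 -0.70, adjusted p = 0.00995, and -0.84, adjusted p = 0.00215). In bone 6 rose after F-PRT and 4 after S-PRT with 0 falling, with medians of 0.25 and 0.21. Dlat, the acetyltransferase of pyruvate dehydrogenase, rose after both (log2 0.58, adjusted p = 0.000426, and 0.58, adjusted p = 0.000519). Of 16 genes of fatty acid oxidation, 1 and 3 fell in skin and 3 and 1 rose in bone, and Hadh, a dehydrogenase of the pathway, was called in all 4 comparisons: log2 -0.56 in skin after either beam (adjusted p = 0.0361 and 0.0255) and 0.48 and 0.36 in bone (adjusted p = 0.000717 and 0.0056). Of 78 mitochondrial ribosome genes, 77 were negative in skin after F-PRT and 74 after S-PRT, with medians of -0.25 and -0.26, and 2 and 4 fell. In bone 6 and 8 of these rose while 2 and 1 fell, with medians of 0.14 and 0.09. Of all genes 15.5% and 13.3% were called higher there, a larger share.

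Negative skin values were also common in lists outside oxidative phosphorylation. Of 18 glycolysis genes, 17 were negative in skin after F-PRT and 12 after S-PRT, with medians of -0.36 and -0.08. Among them 1 fell after each beam, Aldoc (log2 -1.36, adjusted p = 0.0394, and -1.20, adjusted p = 0.0486), and the bone medians were -0.06 and -0.05. Of 86 cytosolic ribosome genes tested in skin, 78 and 73 were negative, with medians of -0.13 and -0.15, and the bone medians were -0.06 and -0.08. Of 18 genes of mitochondrial biogenesis and transcription, 16 and 13 were negative in skin (medians -0.13 and -0.12), and 4 fell and 1 rose in bone after each beam. Nrf1, the transcription factor whose site is named above, fell after F-PRT (log2 -0.57, adjusted p = 0.00103), as did Polg, the mitochondrial DNA polymerase (log2 -0.58, adjusted p = 0.000556), and after S-PRT Gabpb1, a GABP subunit, fell (log2 -0.49, adjusted p = 0.00306) while Ppargc1b, a coactivator of mitochondrial genes, rose (log2 0.73, adjusted p = 0.00226). None of the 18 was called in skin (0 by edgeR after either beam, with 2 and 1 at an unadjusted p under 0.05). Targets of p53 rose in both tissues (10 and 12 of 12 in skin, 10 and 10 in bone), and of 20 cell cycle genes 17 and 15 fell in bone and 0 were called in skin, where their medians were -0.67 and -0.47.

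Gene structure limits some of these values. Of the 100 genes, 44 overlap another gene model, 36 of them on the opposite strand, and 6 (Uqcrh, Atp5l, Atp5k, Ndufab1, Cycs and Atp5c1) have 9 annotated processed pseudogenes under their symbol, so that reads may have been split or shared.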

How the data were processed

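Per the labels, polyadenylated RNA of 24 libraries (2 tissues, 3 treatments, 4 replicates) was sequenced on an Illumina HiSeq in paired reads. STAR, RSEM, cutadapt and FastQC, with the build GRCm38, are listed in the submitters' processing notes. Their versions, the annotation release and the strand setting are not stated there. The authors deposited 1 table per library, which per the file headers holds each gene's expected count, TPM and FPKM. Expected counts from the deposited tables were rounded and tested. Deposited TPM values were used for levels between genes and isoform shares, and the FPKM values the authors deposited entered no test. Gene IDs were matched to GENCODE M21 (55230 of 55471).

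Counts were scaled by TMM and filtered with filterByExpr in edgeR 4.0.16 (R 4.3.3), fitted within each tissue (12 libraries), and tested with the quasi-likelihood test at an adjusted p of 0.05. The tissue difference and the untreated comparison came from a fit of all 24 libraries. The standard error is the log2 change divided by the root of F, and plotted log2 CPM carry a prior count of 2. The tests were checked on simulated data. Chi-square per degree of freedom between libraries of the same group was 9.54 or more (genes with at least 20 counts), so no 2 replicates of a group agreed within counting noise. P-values rest on the spread within groups, estimated for each gene over all 12 or 24 libraries of a fit. That estimate was moderated across genes.

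The genes and lists were chosen with earlier results of these data known. Genes are named where called (the 10 of smallest p where more than 10 were), in a panel per complex, as isoform pairs, as the 3 highest and 3 lowest in a comparison, as the 5 largest differences each way between untreated tissues, or as the 2 of smallest p in another list. Alternatives were DESeq2 1.42.0, RLE scaling, testing unfiltered genes, requiring 1 CPM in at least 4 libraries, the replicate number as a block, only the 8 libraries compared, a skeletal muscle covariate, leaving out each library, and leaving out 5 libraries in doubt.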

Additional observations from a re-analysis of the deposited data

Results flagged for a closer look

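The CPM of the 56 genes that the naming rule picked was checked in 327 groups of 4 libraries (a gene in a tissue and treatment, where at least 1 library reached 1 CPM) for a highest or lowest library whose gap to its neighbour, as a part of the group's range, exceeded Dixon's 95% critical value. This was found 24 times, and chance gives it in about 1 of 20 groups. Most often it was skin S-PRT 1 or skin F-PRT 1, the libraries with the highest skeletal muscle marker means of their groups (9.43 and 7.80, mean log2 CPM). In skin S-PRT 1 the value stood apart for Cox6a2 (90.7 CPM), Cox7a1 (10.2 CPM), Atp5c1 (114 CPM), Ndufs3 (57.9 CPM) and Uqcrc2 (94.0 CPM), a core protein of complex III. In skin F-PRT 1 it did so for Cox6a2 (32.3 CPM), Cox7a1 (3.89 CPM), Cox8b (7.67 CPM), Atp5g3 (103 CPM), Sdhd (49.4 CPM) and Ndufs1 (74.4 CPM).

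In bone S-PRT 1, with a muscle marker mean of 8.46, Atp5g1 (65.7 CPM), Atp5g3 (106 CPM), Cyc1 (106 CPM) and the assembly factor Ndufaf8 (6.22 CPM) stood apart. Skin Untreated 1 did so for Atp5g2 (42.0 CPM), Cox6a1 (52.5 CPM), Ndufa4l2 (59.9 CPM) and Atp5k (3.86 CPM). The others in skin were Cox8a in F-PRT 2 (71.4 CPM) and Ndufb7 in F-PRT 3 (13.8 CPM). In bone they were the Atp5o model ENSMUSG00000116933 in S-PRT 3 (3.14 CPM), Ndufc2 in Untreated 1 (28.1 CPM) and Uqcr10 in Untreated 4 (42.2 CPM). The part of muscle in these values was not tested.

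The second kind of result listed here is a treatment effect that differed between the tissues by edgeR's quasi-likelihood test of the difference itself, as the log2 change in skin minus that in bone. For F-PRT the differences of smallest p were those of Cox6b2 (2.65), Ndufaf4 (-1.05), Atp5g3 (-0.85), Uqcr10 (-0.86), Sdhd (-0.79), Cyc1 (-0.87), Uqcrc2 (-0.73), Atp5c1 (-0.68), Ndufb6 (-0.68) and Ndufa10 (-0.82). For S-PRT they were those of Cox6b2 (2.02), Ndufaf4 (-1.01), Atp5g3 (-0.76), Uqcr10 (-0.89), Atp5j (-0.64) and Ndufb6 (-0.72). Next came Ndufa4l2 (-1.64), Cyc1 (-0.85), Uqcrq (-0.82) and the Atp5o model ENSMUSG00000022956 (-0.78).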

How the results depend on the processing

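The median log2 change over the genes kept its sign in all settings run for the comparisons with untreated tissue, for both tissue differences and for untreated skin against bone. It ranged from -0.38 to -0.26 in skin after F-PRT, from -0.33 to -0.17 in skin after S-PRT, from 0.06 to 0.24 in bone after F-PRT and from 0.07 to 0.24 in bone after S-PRT. Between the beams the sign varied (-0.08 to 0.04 in skin, -0.06 to 0.08 in bone), with 0 genes called in every setting. The counts of genes called moved more. Where no share of all genes is given for a setting, the count does not show a change particular to these genes. In skin after F-PRT (2 called) they were 8 with DESeq2, 1 without a filter, 10 in a fit of only the 8 libraries compared, 6 with the muscle covariate, 17 without the libraries in doubt and 1 to 11 leaving out single libraries. After S-PRT (7 called) the same settings gave 15, 3, 2, 11, 17 and 1 to 11. In bone after F-PRT (15 called) there were 6 with the covariate, 3 without the libraries in doubt and 4 to 20 leaving out single libraries. After S-PRT (8 called) there were 2 with the covariate and 3 to 15 leaving out single libraries. The tissue difference gave 13 without the libraries in doubt for F-PRT (21 called) and 10 to 23 leaving out single libraries for S-PRT (16 called). Of 30 calls of named genes against untreated 5 were kept in all 20 settings: Cox6b2 in skin and Ndufaf4 in bone after both beams, and Ndufa10 in bone after S-PRT. Of 33 such calls of a tissue difference 15 were kept in all 30.

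With the replicate number as a block 8 genes were called in bone after F-PRT, 6 after S-PRT, 2 and 6 in skin, 23 and 14 for the tissue differences and 63 between untreated tissues. The numbers were not taken to pair the libraries. Not every same-numbered pair correlated above 0.1 in its deviations from the group means, which cannot exclude a weak pairing. In skin these pairs ran from -0.343 to 0.372 (median 0.116, 7 of 12 over 0.1), beside a median of -0.02 and 8 of 36 for other pairs. In bone they ran from -0.261 to 0.187 (3 of 12, beside 9 of 36), and between the tissues from -0.289 to 0.194 (1 of 12). Of the libraries, 4 of 12 in skin and 2 of 12 in bone correlated best with their own number. No chance level was set beside these counts, so they are not read as a sign of pairing.

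Signs turned for genes that were not called. For Cox6a2 in skin after F-PRT the log2 change was -0.05 with the block and -1.24 to 1.49 leaving out single libraries, and after S-PRT it was -0.19 with the covariate and -0.41 to 2.85. For Cox8b in skin after S-PRT it was -0.25 with the block, -0.98 with the covariate and -0.97 to 1.71 leaving out single libraries. For Cox6a2 in bone after F-PRT it was -0.15 with the covariate and -0.08 to 1.30. For the Atp5o model ENSMUSG00000116933 it was -4.04 in bone after F-PRT without the libraries in doubt. For untreated skin against bone the value of that model was 0.58 with the block and -1.69 to 0.83 leaving out single libraries. The cause was not tested. Genes of a few CPM, such as Cox4i2 and Cox7a1, rest on few counts, and differences in them were less detectable at this depth.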
